A study of Mus musculus with 6 samples.

Results

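The genes Lin28a, Lin28b, Tut4, Tut7 and Dis3l2, 5 of the 19946 genes that have a row with 1 gene symbol, were followed across 6 microarrays of mouse embryonic stem (ES) cells. They were chosen by name, as the genes that encode the LIN28 proteins and the enzymes that put a tail of uridines on small RNA precursors and degrade the tailed RNA. Each was found on 1 row of the value table, annotated with that symbol alone, and 0 further rows carried a member together with another symbol. All 5 were tested, since no filter on dim rows was used. The cells were of the line A3-1, in 3 groups of 2 arrays: cells given a small interfering RNA (siRNA) against Lin28a (siLin28a), cells given an siRNA against green fluorescent protein, the control siRNA (siGFP), and untreated cells. Per the labels' protocols, all cells grew in medium with 20% serum and with LIF, which holds back differentiation, and both siRNA groups were kept for 48 h. All arrays come from 1 cell line and each siRNA group received 1 siRNA duplex, so an effect of one siRNA sequence and an effect of losing its target cannot be told apart. Whether a group's 2 arrays stem from separate cultures is not stated in the labels, so all p-values below rest on array-to-array spread that could be technical.

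LIN28A and LIN28B are RNA-binding proteins with a cold shock domain and zinc knuckles that bind the precursors of the let-7 microRNAs and keep them from being processed. In mouse ES cells LIN28A recruits the terminal uridylyltransferase TUT4, and TUT7 can act in the same way. The enzymes add a chain of uridines to the precursor, which blocks cutting by Dicer and marks the RNA for the exonuclease DIS3L2. Mature let-7 is scarce in ES cells and accumulates as they differentiate.

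The RNAs on which these proteins act show what the zinc knuckles read, a GGAG sequence in the loop of the let-7 precursor. In RefSeq's mouse hairpins (build GRCm38.p6), 8 of 10 let-7 hairpins with both mature arms annotated held GGAG between the arms, and 52 of all 644 such hairpins did (8.07%). The motif was searched as these letters on the strand of the RNA, and a match is a description, not a measured binding site. Of the following 4 hairpins, shown for the contrast in the loop, let-7g, let-7a-1 and let-7d hold the motif, in capitals, and let-7b does not. Their positions are chr9:106178840-106178927 on the plus strand for Mirlet7g, chr13:48538179-48538272 on the minus strand for Mirlet7a-1, chr13:48536012-48536114 on the minus strand for Mirlet7d and chr15:85707319-85707403 on the plus strand for Mirlet7b.
Mirlet7g: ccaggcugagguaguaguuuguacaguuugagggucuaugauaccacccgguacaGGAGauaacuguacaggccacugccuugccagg
Mirlet7a-1: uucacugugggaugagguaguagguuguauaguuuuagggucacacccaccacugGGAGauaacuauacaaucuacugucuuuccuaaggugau
Mirlet7d: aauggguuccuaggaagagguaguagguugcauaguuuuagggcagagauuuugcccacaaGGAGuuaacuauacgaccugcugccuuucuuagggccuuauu
Mirlet7b: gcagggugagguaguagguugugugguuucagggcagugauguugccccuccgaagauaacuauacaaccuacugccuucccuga
The mature arm cut from Mirlet7a-1 has its seed, the bases that choose target mRNAs, in capitals in the next line.
let-7a-5p: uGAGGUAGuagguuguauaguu

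The duplex that set the siLin28a group apart is given by the labels as a pair of strands of 19 bases, each with an overhang of 2 deoxythymidines that is left out here. All 19 positions of the strands pair with each other. Its place in the Lin28a transcript was not looked up here. Bases 2 to 8 of the second strand, the seed if that strand enters Argonaute, are in capitals.
siLin28a first strand: gcagaagcgaagauccaaa
siLin28a second strand: uUUGGAUCuucgcuucugc

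Values are log2 expression as deposited, made by RMA (background correction, quantile normalization and summary of probes per row) and rounded to 0.1. The median over all rows was 5.2 or 5.3 in every array. No detection call comes with the values, so a low value and background cannot be told apart, and levels are compared within a gene only. Differences are log2 fold changes with limma's moderated standard error (SE), a 95% interval, and p-values adjusted by the Benjamini-Hochberg method over all 23410 rows that carry a gene. In bulk RNA, fewer cells with a transcript and less of it per cell cannot be told apart. All 10 listed ES cell markers had a row, and their median was 10.6 to 11.35 per array. The medians per array were 5.55 to 5.80 for the 8 feeder fibroblast markers with a row, 4.6 to 4.75 for 6 primitive endoderm markers and 4.90 to 5.50 for 5 neural markers. As these are different probes with no detection call, the medians are given as values and do not settle which cells were present.

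Lin28a, the target, had 7.4 on both arrays of siLin28a cells, 9.1 and 9.4 in siGFP cells and likewise 9.1 and 9.4 in untreated cells. Both siLin28a arrays lay below all 4 others, and the siGFP and untreated arrays held the same pair of values. The group means were 7.40 ± 0.00 in siLin28a, 9.25 ± 0.21 in siGFP and 9.25 ± 0.21 in untreated cells (SD, n = 2 each). The log2 fold change of siLin28a over siGFP was −1.85 (SE 0.16, 95% interval −2.24 to −1.46), a 3.61-fold lower level that leaves 27.7% of the siGFP level. No row of the 23410 had a lower log2 fold change, and 5 rows, Lin28a included, had one at least as large in size. Lin28a also had the smallest p of all rows in this comparison, 2.19e-05 unadjusted.

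That p did not pass the threshold of 0.05 after adjustment (adjusted p 0.512 by limma, n = 2 per group). In this comparison 0 of 23410 rows passed, a percentage of 0, and 949 had an unadjusted p under 0.05 (4.05%). Least squares without limma's shared prior also called 0. The log2 fold change of Lin28a stayed between −2.00 and −1.70 in all 18 alternative fits. Fits that changed only the spread estimate, the block or the rows tested return −1.85 by construction. Only a further normalization or a change in the arrays compared could move it. The adjusted p of Lin28a depended on how the spread was estimated. It passed in 3 of the 18: at 0.0244 with a robust prior, at 0.0441 after a further cyclic loess normalization, and at 0.00354 when 111 rows with no spread within any group were left out. These 111 rows have equal values on both arrays of every group, which the rounding to 0.1 makes possible, and without them the prior gained weight (9.27 degrees of freedom, against 3.19 with all rows). Leaving them out was chosen after the data were seen. Leaving out 1 array gave adjusted p-values of 0.687 to 0.982, and over all 18 alternatives they ranged between 0.00354 and 0.991.

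**Figure D1:**
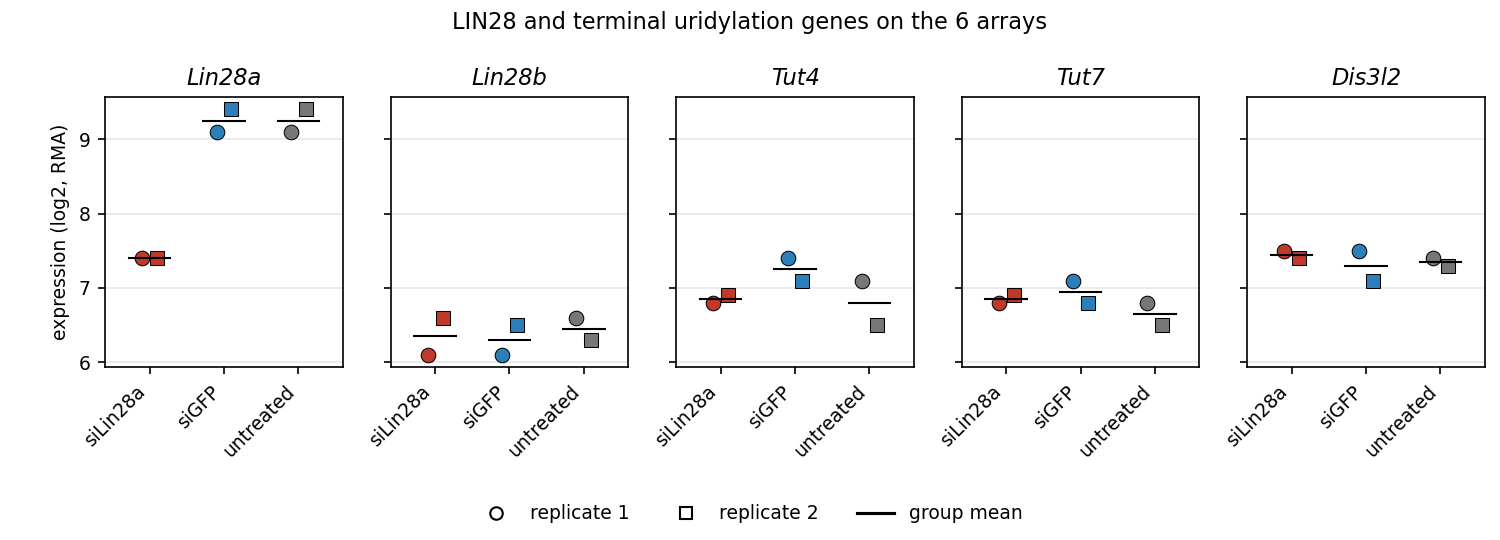
Log2 expression of the 5 genes on each array, with siLin28a, siGFP and untreated from left to right. Circles are replicate 1, squares replicate 2 and lines group means (n = 2). Lin28a is at 7.4 in both siLin28a arrays and at 9.1 or 9.4 in the 4 others, and the other 4 genes stay between 6.1 and 7.5.

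**Figure D2:**
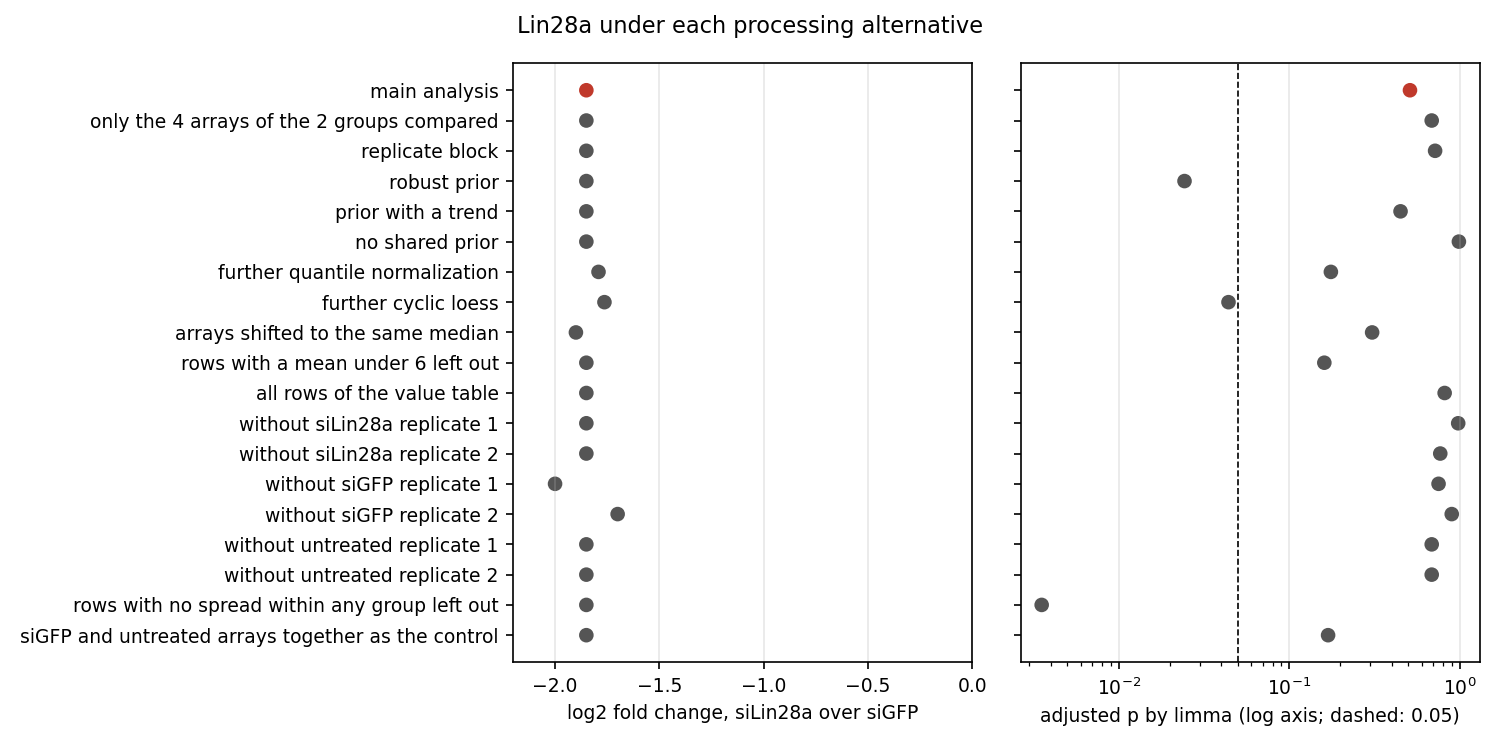
The log2 fold change of Lin28a for siLin28a over siGFP (left) and its adjusted p on a log axis (right) in the main analysis (red) and in each alternative (grey). Alternatives that change only the spread estimate, the block or the rows tested give −1.85 by construction. The fold change stays between −2.00 and −1.70, and the adjusted p lies left of the dashed threshold of 0.05 in 3 of 18 alternatives.

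Against untreated cells the siLin28a value was the same, −1.85 (SE 0.16, adjusted p 0.171 by limma, rank 3 of all rows by p), as the siGFP and untreated means are equal. The comparison shares its siLin28a arrays with the one above. Of all rows 0 passed here too (a percentage of 0), and 1508 had an unadjusted p under 0.05 (6.44%). In siGFP cells Lin28a had a log2 fold change of 0.00 over untreated cells (SE 0.16, 95% interval −0.39 to 0.39). The interval leaves room for a change in either direction, and the control siRNA and its delivery cannot be told apart here. Between siGFP and untreated cells 0 rows passed (a percentage of 0) and 825 had an unadjusted p under 0.05 (3.52%), with 0 of the 5 genes among them. In each siLin28a comparison Lin28a alone of the 5 was among the rows with an unadjusted p under 0.05.

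Lin28b encodes the second LIN28 protein, which in human cells is found largely in the nucleus and is itself a let-7 target. It had 6.1 and 6.6 in siLin28a cells, 6.1 and 6.5 in siGFP cells and 6.6 and 6.3 in untreated cells. The 3 groups overlapped. In both siRNA groups replicate 2 was above replicate 1, by 0.5 in siLin28a and 0.4 in siGFP, and in untreated cells it was 0.3 below. The log2 fold change of siLin28a over siGFP was 0.05 (SE 0.23, 95% interval −0.50 to 0.60, adjusted p 0.966 by limma). The interval leaves room for a change of up to that size in either direction, so these arrays do not show that Lin28b kept its level. The value was −0.20 without siLin28a replicate 2, −0.15 without siGFP replicate 1, and 0.30 without siLin28a replicate 1. Over untreated cells Lin28b had −0.10 in siLin28a and −0.15 in siGFP (SE 0.23 each).

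Tut4, formerly Zcchc11, encodes the uridylyltransferase that LIN28A recruits. It had 6.8 and 6.9 in siLin28a cells, 7.4 and 7.1 in siGFP cells and 7.1 and 6.5 in untreated cells. Both siLin28a arrays were below both siGFP arrays, while the untreated arrays reached below and above the siLin28a arrays. The log2 fold change of siLin28a over siGFP was −0.40 (SE 0.22, 95% interval −0.94 to 0.14, adjusted p 0.953 by limma), 1.32-fold lower and not past the threshold. Of the 23410 rows, 5.24% had a log2 fold change at least as large in size. With siGFP and untreated arrays together as the control it was −0.18, and without 1 array it ranged between −0.55 and −0.25, the smallest size without siGFP replicate 1. Over untreated cells Tut4 had 0.05 in siLin28a (SE 0.22, 95% interval −0.49 to 0.59) and 0.45 in siGFP (SE 0.22, 95% interval −0.09 to 0.99, adjusted p 0.961 by limma). The siGFP value was 0.15 without untreated replicate 2 and 0.75 without untreated replicate 1, and the siLin28a value was −0.25 and 0.35 without these arrays. The order of the group means was therefore siGFP, siLin28a, untreated, with the siGFP and siLin28a arrays apart but not past limma's threshold, and the siLin28a and untreated arrays overlapping.

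Tut7, formerly Zcchc6, encodes the related uridylyltransferase, which also tails mRNAs that have lost most of their poly(A). It had 6.8 and 6.9 in siLin28a cells, 7.1 and 6.8 in siGFP cells and 6.8 and 6.5 in untreated cells. The groups overlapped or tied in every comparison. The log2 fold change of siLin28a over siGFP was −0.10 (SE 0.16, 95% interval −0.50 to 0.30, adjusted p 0.953 by limma), and it turned to 0.05 without siGFP replicate 1. Over untreated cells it was 0.20 in siLin28a and 0.30 in siGFP (SE 0.16 each, adjusted p 0.861 and 0.961 by limma). Tut4 and Tut7 shared their highest array, siGFP replicate 1, and their lowest, untreated replicate 2. Both also had the same order of group means, siGFP above siLin28a above untreated. How many of all rows share these traits was not counted, and the order rested on single arrays. For Tut4, siLin28a over untreated turned to −0.25 without untreated replicate 2. For Tut7, siLin28a over siGFP turned to 0.05 without siGFP replicate 1.

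Dis3l2 encodes the exonuclease that degrades uridylated pre-let-7, and in humans its loss causes Perlman syndrome, an overgrowth disorder. It had 7.5 and 7.4 in siLin28a cells, 7.5 and 7.1 in siGFP cells and 7.4 and 7.3 in untreated cells. The arrays of the 3 groups overlapped, and siGFP replicate 2 was the lowest of the 6. The log2 fold change of siLin28a over siGFP was 0.15 (SE 0.16, 95% interval −0.24 to 0.54, adjusted p 0.953 by limma). It was −0.05 without siGFP replicate 2 and 0.35 without siGFP replicate 1. Over untreated cells Dis3l2 had 0.10 in siLin28a and −0.05 in siGFP (SE 0.16 each), and the siGFP value was 0.15 without siGFP replicate 2.

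**Figure D3:**
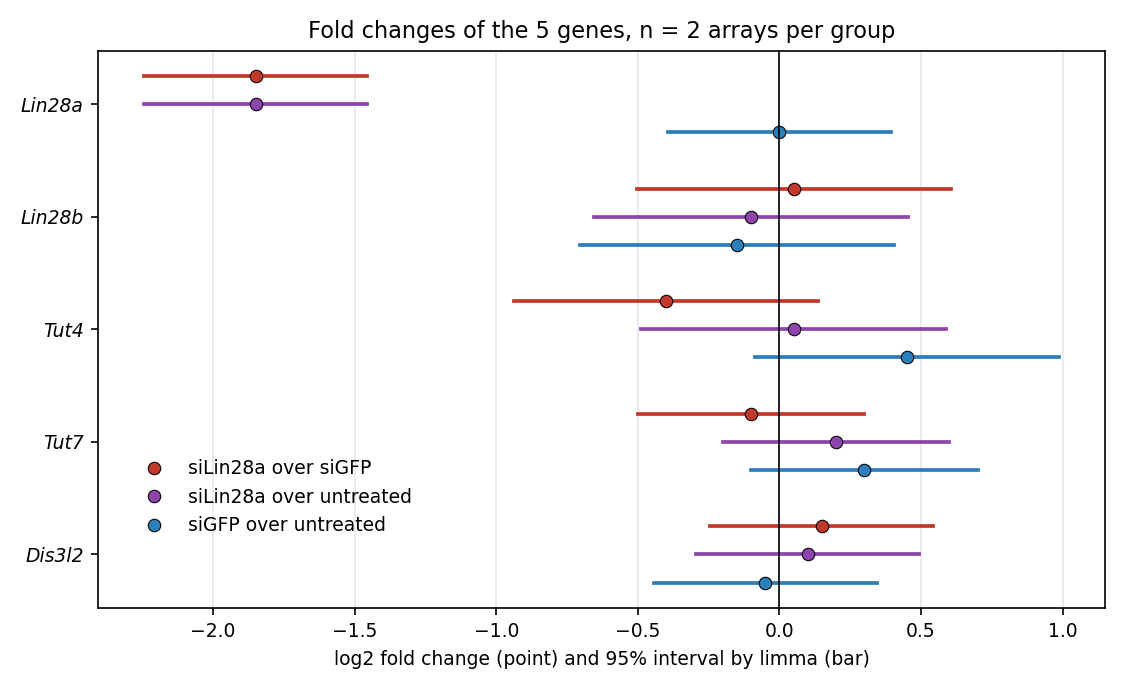
Log2 fold changes of the 5 genes (points) with limma's 95% intervals (bars) in siLin28a over siGFP (red), siLin28a over untreated (purple) and siGFP over untreated (blue), n = 2 arrays per group. The intervals of Lin28a in both siLin28a comparisons lie between −2.24 and −1.46, and all other intervals include 0.

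Among the 5 genes, Lin28a was the one whose arrays separated in both comparisons of siLin28a, and Tut4 was the other with both arrays lower than siGFP. Of all rows, 11.8% had both siLin28a arrays below both siGFP arrays and 9.03% had both above, so 2 of 5 members is a count from few genes and is read only beside that share. Against untreated cells 1 of 5, Lin28a, had both siLin28a arrays lower, where 12.6% of all rows did. Between siGFP and untreated cells 0 of 5 separated, where 8.46% of rows were lower and 9.22% higher on both arrays. Lin28a has an SE of 0.16, as do Tut7 and Dis3l2, while Lin28b and Tut4 have 0.23 and 0.22, and the median SE over all rows was 0.15.

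**Figure D4:**
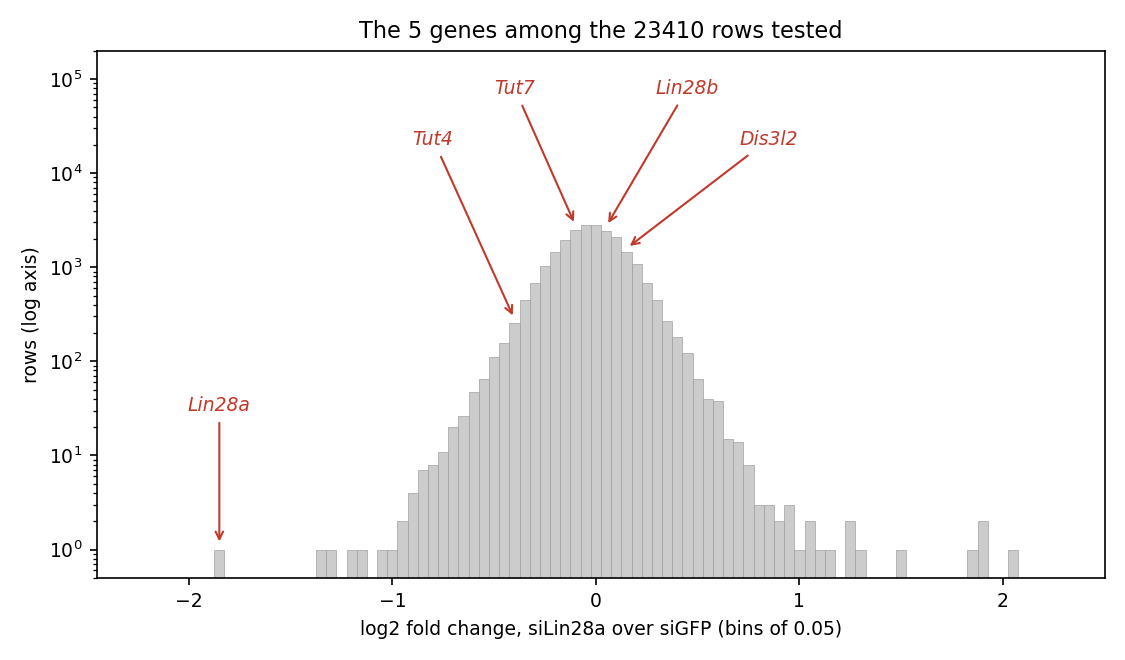
Histogram of the log2 fold changes of all 23410 tested rows in siLin28a over siGFP (bins of 0.05, log vertical axis), with arrows at the 5 genes. Lin28a is alone at −1.85, the lowest of all rows, and the other 4 lie between −0.40 and 0.15. Tut4, at −0.40, lies toward the lower side, where 720 rows, Tut4 included, had a value as low or lower.

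The ES cell markers were on average lower in the siLin28a group and are given beside these values. The median over the 10 markers was 10.6 and 10.85 in the siLin28a arrays, 10.9 and 11.35 in the siGFP arrays and 11.1 and 11.35 in the untreated arrays. All 10 had a lower mean in siLin28a than in siGFP, against 49.6% of all rows, with a median log2 fold change of −0.30. Both arrays were lower for 6 of the 10 (11.8% of all rows), 5 had an unadjusted p under 0.05 (4.05% of all rows), and 0 passed over all rows. Without 1 array, 8 to 10 of the 10 stayed lower, with medians of −0.40 to −0.25. In the same comparison the median log2 fold change was 0.10 for the 8 feeder markers and 0.00 for the 6 primitive endoderm markers. Of the feeder markers 5 were higher, 1 lower and 2 equal, and 3 were higher on both arrays (9.03% of all rows). Without siLin28a replicate 1, 4 feeder markers were higher and 3 lower, and without siLin28a replicate 2, 7 were higher and 0 lower. The 5 neural markers went both ways, with Tubb3 at −0.55 and Map2 at −0.50 (unadjusted p 0.0253 and 0.0095 by limma), Sox1 at 0.10, Pax6 at 0.20 and Nes at 0.45. Of these 3 lists 0 genes passed. The part of these shifts in the values of the 5 genes was not tested.

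The neighbours of the 5 genes in the pathway were followed in 4 lists. The first held other uridylation and RNA decay genes, not all of them enzymes or acting at the 3′ end. The others held microRNA processing and silencing genes, other proteins that act on let-7 precursors or with LIN28, and let-7 target mRNAs. In siLin28a over siGFP 0 genes of any list passed in either direction, and over all rows the median was 0.00, with 49.6% of rows lower and 38.3% higher. Same-numbered siLin28a and siGFP arrays deviated together (r = 0.36 across rows), and leaving out 1 of them unbalances the replicate numbers. The list medians depended on single arrays in such fits. Without siLin28a replicate 1 they were 0.05, 0.00, 0.10 and 0.05 in the order given (0.00 over all rows), and without siLin28a replicate 2 they were −0.20, −0.18, −0.15 and −0.18 (−0.05 over all rows). The first list's median was also 0.03 without siGFP replicate 2 and −0.15 without siGFP replicate 1, and that of the let-7 targets was −0.05 without siGFP replicate 2. Of the 32 uridylation and decay genes with a row, 20 were lower, 6 higher and 6 equal, with a median log2 fold change of −0.05 and a range of −0.40 to 0.15. The other uridylyltransferase Tut1, which tails the U6 snRNA, was at 0.00, and Tent2, which acts on microRNAs and their precursors, at −0.10. Mov10, an RNA helicase, had the lowest value, −0.40 (SE 0.18), with 9.8 and 9.5 in siLin28a cells against 10.2 and 9.9 in siGFP cells. Dis3l, the cytoplasmic exosome's exonuclease and a relative of Dis3l2, had −0.35 (SE 0.13), and Xrn2, a nuclear exonuclease, −0.35 (SE 0.21). Over untreated cells, the siLin28a values of Mov10, Dis3l and Xrn2 were −0.20, −0.05 and −0.35. Of this list, 1 of 32 genes had an unadjusted p under 0.05, namely Dis3l, where 4.05% of all rows did. Leaving out 1 array moved Mov10 between −0.55 and −0.25, Dis3l between −0.45 and −0.25 and Xrn2 between −0.55 and −0.15. This list's median over untreated cells was −0.13 in siLin28a (23 lower, 3 higher) and −0.10 in siGFP (19 lower, 8 higher). Both siGFP arrays were below both untreated arrays for 8 of the 32 genes (8.46% of all rows) and above for 2 (9.22%). The siGFP median was 0.05 without siGFP replicate 1.

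The 18 microRNA processing and silencing genes had a median of −0.05 in siLin28a over siGFP, with 11 lower, 3 higher and 4 equal. The largest in size were Tnrc6c, which links Argonaute to deadenylation, at −0.35 (SE 0.15), and, at −0.25 each, Dgcr8, the partner of Drosha, and the RNA helicase Ddx5. Without 1 array the ranges were −0.50 to −0.20 for Tnrc6c, −0.40 to −0.10 for Dgcr8 and −0.45 to −0.05 for Ddx5. Dicer1, which cuts pre-let-7, had −0.20 and Drosha −0.05. The 17 other proteins on let-7 precursors or with LIN28 had a median of 0.00, with 8 lower, 6 higher and 3 equal. Syncrip, an hnRNP protein, had −0.40 (SE 0.18), with 9.7 and 10 in siLin28a cells against 10.1 and 10.4 in siGFP cells. Msi1, a neural RNA-binding protein that works with LIN28 on let-7 in the nucleus, had 0.35 (SE 0.20), with 6.2 and 6.1 in siLin28a cells against 6.0 and 5.6 in siGFP cells. Leaving out 1 array gave −0.55 to −0.25 for Syncrip and 0.15 to 0.55 for Msi1. In siLin28a over untreated, Tnrc6c had −0.55, Ddx5 −0.30, Dgcr8 −0.20, Syncrip −0.50 and Msi1 0.35. The siGFP values over untreated were −0.20, −0.05, 0.05, −0.10 and 0.00 in the same order.

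The 28 let-7 target mRNAs with a row had a median of −0.13 in siLin28a over siGFP, with 19 lower, 7 higher and 2 equal. Without siLin28a replicate 1 the median was 0.05, with 8 lower and 18 higher. Mature let-7, the tails of its precursors and LIN28A protein were not examined here, so these mRNA levels alone do not show let-7 activity. Igf2bp1, Igf2bp3 and Trim71 also belong to the previous list. The list's median was −0.03 in siLin28a over untreated and 0.00 in siGFP over untreated. Hmga2, a chromatin protein long known as a let-7 target, had −0.15 in siLin28a over siGFP, 0.20 in siLin28a over untreated and 0.35 in siGFP over untreated (SE 0.14 each), so its sign turned with the control. Nr6a1, the germ cell nuclear factor, had the highest value, 0.45 (SE 0.19), with 7.9 and 8.2 in siLin28a cells against 7.7 and 7.5 in siGFP cells. It was at 7.7 and 8.1 in untreated cells, which overlaps siLin28a. Myc had −0.40 (SE 0.50), with 6.8 and 8.1 in siLin28a cells against 7.3 and 8.4 in siGFP cells. It turned to 0.25 without siLin28a replicate 1 and to 0.15 without siGFP replicate 2. On same-numbered arrays siLin28a was the lower each time. Replicate 1 was the lower in both groups, so leaving out 1 of these arrays mixes in that difference. Over untreated cells, Ccnd2, a cell cycle regulator named after its values were seen, had the lowest value of the list in both siRNA groups, −1.20 in siLin28a and −1.05 in siGFP (SE 0.52 each, adjusted p 0.776 and 0.961 by limma). It had 7.8 and 8.9 in siLin28a cells, 7.8 and 9.2 in siGFP cells and 9.7 and 9.4 in untreated cells, so replicate 1 was the lower in both siRNA groups. The siLin28a value was −0.65 without siLin28a replicate 1 and −1.75 without siLin28a replicate 2, and the siGFP value was −0.35 without siGFP replicate 1 and −1.75 without siGFP replicate 2. These comparisons share the untreated arrays.

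**Figure D5:**
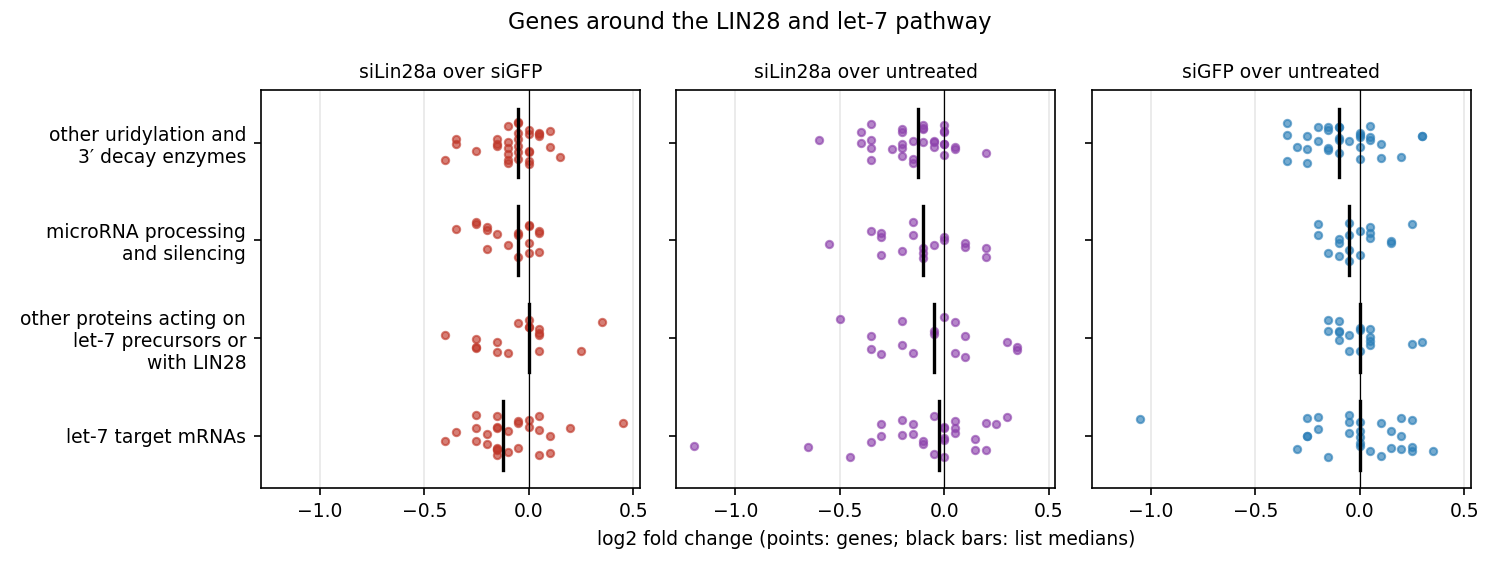
Log2 fold changes of the genes of 4 lists around the LIN28 and let-7 pathway, without the 5 genes themselves, in siLin28a over siGFP, siLin28a over untreated and siGFP over untreated. Points are genes, spread vertically for visibility, and black bars are list medians, which lie between −0.13 and 0.00. The list labelled as 3′ decay enzymes also holds other RNA decay genes.

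The rows most like Lin28a over the 6 arrays were found by the root mean square difference between values centred on each row's own mean, among 9986 rows. The nearest was Tbx3, a T-box transcription factor, at 0.30 on the log2 scale. It had 7.4 and 7.5 in siLin28a cells, 8.6 and 8.6 in siGFP cells and 8.8 and 9.0 in untreated cells. The next were 2 rows of Calcoco2, an autophagy receptor, at 0.39 and 0.45, then Tns1, a focal adhesion protein, at 0.46, and Cpsf4l at 0.47. Their log2 fold changes in siLin28a over siGFP were −1.15 for Tbx3, −1.35 and −0.85 for Calcoco2, −0.85 for Tns1 and −0.85 for Cpsf4l, all smaller in size than that of Lin28a. The first Calcoco2 row had 7.5 and 8.7 on the siGFP arrays, a wider spread than its 6.4 and 7.1 in siLin28a cells. Without 1 array its log2 fold change ranged between −1.95 and −0.75, that of the second row between −1.25 and −0.45 and that of Cpsf4l between −1.15 and −0.55.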

How the data were processed

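RNA of 6 arrays was analysed. RNA was isolated with Trizol and 300 ng of it went into labelling, per the labels' protocols. The authors deposited log2 values made with Affymetrix Expression Console and RMA, per the submitters' processing notes. For tool versions and array library files: not given in the sources used here. Of 35556 rows, 23410 carry at least 1 gene in the platform annotation, 21797 of them 1 symbol. All values are multiples of 0.1. Groups came from the sample titles. The fit was limma 3.58.1 in R 4.3.3 on all 6 arrays in 3 groups (lmFit, contrasts.fit, eBayes), two-sided. It had 3 residual and 3.19 prior degrees of freedom. A check on simulated data required only that the size of added changes was recovered, and set no criterion for the p-values. With 2 arrays against 2, an exact permutation test cannot give a p under 0.333, so none is given. A list gene with several rows is represented by its brightest row. Named beside the 5 members are the 2 genes of each list with the largest fold change in size (ties included), and the 5 rows closest to Lin28a with a mean of at least 6 in the highest group, passing over predicted genes and Rik clones. A few pathway genes are named for their role. The members, lists and tests were chosen with earlier results of these data known. The number of arrays limits the precision.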

Additional observations from a re-analysis of the deposited data

How the results depend on the processing

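Across the fits that did not leave out an array (12 in siLin28a over siGFP, 11 in each other comparison), Lin28a in both siLin28a comparisons kept its direction and passed in 3: with the robust prior (−1.85 in each), after cyclic loess (−1.76 over siGFP and −1.75 over untreated) and without the 111 rows of no spread (−1.85 in each). In these 3 settings, in that order, the rows past the threshold numbered 1, 1 and 6 over siGFP and 7, 5 and 14 over untreated, against 0 in the main analysis, and 0 in each for siGFP over untreated. The single row was Lin28a both times. The 5 rows after cyclic loess were Plk2, Lin28a, Tbx3, Dnmt3b and Lef1, named after their values were seen. The cause was not tested. With siGFP and untreated arrays together as the control, Lin28b turned to −0.025 and Tut7 to 0.05. The replicate block left each value as it was by construction: −1.85 for Lin28a, −0.40 for Tut4, 0.05 for Lin28b, and it called 0 rows. The values of the 5 genes also stayed by construction in the fits that changed only the prior or the rows tested. Same-numbered arrays deviated together in siLin28a and siGFP (r = 0.36 across rows) and in siGFP and untreated (r = 0.15). They did not in siLin28a and untreated (r = −0.04). As not every pair was over 0.1, the main fit did not take the numbers as pairs. A shift shared by same-numbered siLin28a and siGFP arrays thus stays in its spread. Same-numbered differences of siLin28a over siGFP (replicate 1, then 2) were −1.7 and −2.0 for Lin28a and −0.6 and −0.2 for Tut4. They were 0.0 and 0.1 for Lin28b, −0.3 and 0.1 for Tut7 and 0.0 and 0.3 for Dis3l2. Leaving out 1 array gave, in siLin28a over siGFP, −2.00 to −1.70 for Lin28a, −0.20 to 0.30 for Lin28b, −0.55 to −0.25 for Tut4, −0.25 to 0.05 for Tut7 and −0.05 to 0.35 for Dis3l2. Over untreated cells siLin28a ranged between −2.00 and −1.70, −0.35 and 0.15, −0.25 and 0.35, 0.05 and 0.35, and 0.05 and 0.15 in the same order of genes. For siGFP over untreated the ranges were −0.15 to 0.15, −0.35 to 0.05, 0.15 to 0.75, 0.15 to 0.45 and −0.25 to 0.15. Myc ranged between −1.05 and 0.25. Of 216 list medians recomputed, 211 moved by less than the spread between arrays, and the other 5 moved in fits without 1 array. Many of the 211 were fixed by construction, so the count does not show that the medians are stable. Such fits changed only the spread estimate or left out an array outside the comparison. The values of Ccnd2 and the marker lists without 1 array were added after the data were seen. Each member has 1 row, so a second row could not be compared.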
